A study of Mus musculus with 9 samples.

Results

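The loss of utrophin was examined on 2 dystrophin-mutant backgrounds, by setting the 2 arrays of mice with utrn-/- in their title against the 4 arrays of the matching genotypes that keep utrophin, out of 9 arrays in all. Each array held RNA from the gastrocnemius, a calf muscle, of 1 mouse on an Affymetrix U74Av2 oligonucleotide array. The 6 mice compared were male and all carried the mdx mutation in the mouse Dmd gene. Without the human gene, 1 mdx x utrn-/- mouse of 5 weeks stood against 2 mdx mice of 15 weeks (mdx 1) and 13 weeks (mdx 2). With the full-length human dystrophin gene, hDMD, 1 hDMD x mdx x utrn-/- mouse of 9 weeks stood against 2 hDMD x mdx mice of 24 weeks (hDMD x mdx 1) and 10 weeks (hDMD x mdx 2). The remaining arrays, 2 wild-type at 7 weeks (1 female, 1 male) and 1 male hDMD at 11 weeks, gave reference levels and part of the error estimate. Each mouse without utrophin was the youngest of its comparison, so age and utrophin genotype cannot be told apart on either background. The labels name neither the utrn allele nor the promoter of the human gene, and they give a strain for the wild-type mice only.

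Dystrophin ties the actin cytoskeleton of the muscle fibre to a complex of membrane glycoproteins and, through it, to the surrounding matrix. Utrophin is its close relative: in adult muscle it sits mainly at the neuromuscular and myotendinous junctions, and in regenerating and dystrophin-deficient fibres it spreads along the membrane and binds the same complex. Mice lacking both proteins have a far more severe muscle disease than mdx mice, while utrophin loss alone is mild.

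Levels are log2 of the quantile normalised intensity plus 16, so the floor is 4.0, and differences are on that scale, which understates the change of dim genes. A dim group lying wholly at the floor is given by its levels and not by a difference. In each comparison 7453 probe sets were tested with limma, and a call means a Benjamini-Hochberg adjusted p under 0.05. Errors are the SE of a difference, and a single mouse was assumed to vary like the genotypes with 2 mice. By their spike-in controls, 3 of the 9 arrays were bright (mdx 2, hDMD x mdx 1 and 1 wild-type). Both arrays without utrophin were dim, so each of them also had 1 dim partner (mdx 1 and hDMD x mdx 2). Each genotype with 2 mice thus held 1 bright and 1 dim array, and the errors of the main fits include that difference. The summed intensity of 8 skeletal muscle fibre markers, among them Ckm and Acta1, was 15220 to 18740 over the 9 arrays. The array labelled mdx x utrn-/- had 16230 and the array labelled hDMD x mdx x utrn-/- had 18160.

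A pair of neutrophil transcripts, S100a8 and S100a9, passed the test between mdx x utrn-/- and mdx muscle. Dim probe sets were filtered out beforehand, and S100a9 was kept only through its level in the mdx x utrn-/- array. With no filter, S100a9 was not called. S100a8 and S100a9, which together form calprotectin, a major cytosolic protein of neutrophils, rose, and they were the only calls without the human gene (2 of 7453 probe sets, both higher, 0.0268% of those tested, with 286 at an unadjusted p under 0.05, or 3.84%). With the human gene, no probe set was called (336 at an unadjusted p under 0.05, or 4.51%, in limma). Promoters were taken only for the 4 genes with the smallest p among those higher without the human gene, S100a8, S100a9, G0s2 and Ltf. Camp, Mpo and others high in the same mouse were left out. The promoters of S100a8, S100a9 and Ltf are shown, and that of G0s2 is summarised after them. Each is the 250 bases before the gene's start in RefSeq for GRCm38.p6, 5′ to 3′ on the gene's strand, at chr3:90668821-90669070 on the plus strand for S100a8, chr3:90695722-90695971 on the minus strand for S100a9 and chr9:111019042-111019291 on the plus strand for Ltf. Capitals mark 3 motifs searched on both strands after the values were seen: TATAAA, the TATA box; GAGGAA, a core bound by PU.1, a factor of myeloid cells; and TTNNGNAA, a pattern of C/EBP factors.
S100a8: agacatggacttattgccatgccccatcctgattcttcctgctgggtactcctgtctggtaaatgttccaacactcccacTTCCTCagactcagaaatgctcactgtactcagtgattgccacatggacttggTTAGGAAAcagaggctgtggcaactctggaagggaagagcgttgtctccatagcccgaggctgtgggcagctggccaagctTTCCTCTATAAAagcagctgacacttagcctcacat
S100a9: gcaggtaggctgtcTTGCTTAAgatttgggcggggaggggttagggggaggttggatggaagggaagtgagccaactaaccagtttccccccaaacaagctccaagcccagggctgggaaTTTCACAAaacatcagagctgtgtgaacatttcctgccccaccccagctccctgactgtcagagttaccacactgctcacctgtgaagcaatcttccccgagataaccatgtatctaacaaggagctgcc
Ltf: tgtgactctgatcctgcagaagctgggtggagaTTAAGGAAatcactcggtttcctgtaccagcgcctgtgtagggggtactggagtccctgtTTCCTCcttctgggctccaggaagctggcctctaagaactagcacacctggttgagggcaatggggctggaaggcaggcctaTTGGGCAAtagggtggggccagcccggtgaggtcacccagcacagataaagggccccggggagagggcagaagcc
The S100a8 window held 4 matches, with GAGGAA on the opposite strand directly before TATAAA, and the Ltf and S100a9 windows held 3 and 2. Of 32817 promoters of this length in the table, 12.4% held TATAAA, 23.3% GAGGAA and 36.8% TTNNGNAA, so such matches are common. The same window of G0s2, described next to these genes below, held none of the 3.

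S100a8 was at 4.20 and 4.19 in mdx 1 and 2 and at 9.08 in mdx x utrn-/-. In the same order S100a9 was at 4.46, 4.05 and 9.52. Both genes were thus near the floor in the mice with utrophin and far above it in the mouse without, with no overlap. S100a8 rose by 4.89 ± 0.39 and S100a9 by 5.26 ± 0.42, each with an adjusted p of 0.0195 in limma. In the presence of the human gene S100a8 was at 4.27 and 4.04 with utrophin and at the floor, 4.0, without it. S100a9 was at the floor in both hDMD x mdx mice and at 4.46 in hDMD x mdx x utrn-/-. Wild-type muscle lay between, with S100a8 at 5.74 and 5.59 and S100a9 at 5.29 and 4.89, and the hDMD mouse had 4.0 and 4.16. The difference between the utrophin effects on the 2 backgrounds did not pass for either gene in limma (adjusted p 0.297 and 0.345), and its size is not given because arrays with the human gene were at the floor. No probe set passed that test of the difference between backgrounds (286 at an unadjusted p under 0.05, or 3.84%), but with brightness as a block S100a8 did, with an adjusted p of 0.0485.

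**Figure D1:**
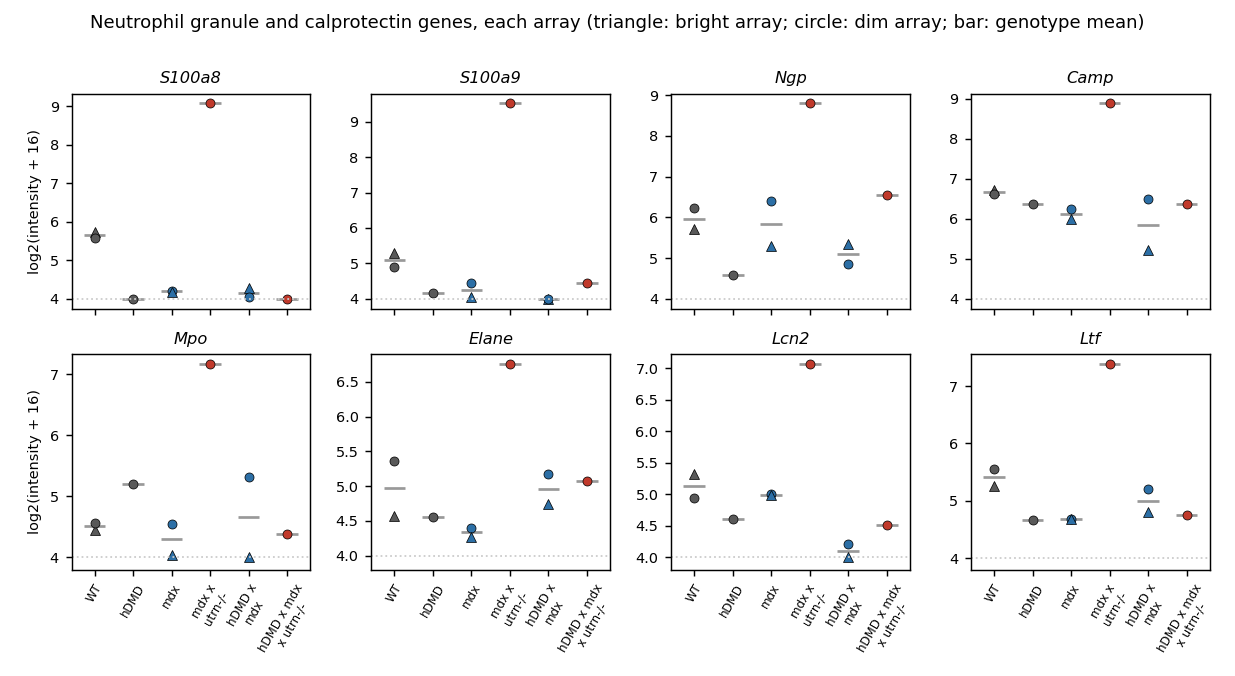
Levels of 8 neutrophil genes on each of the 9 arrays, in log2(intensity + 16), by genotype. Red points are mice without utrophin, blue points mdx and hDMD x mdx mice and grey points mice without the mdx mutation, triangles are bright and circles dim arrays, bars are genotype means, and the dotted line is the floor of 4. In all 8 panels the single mdx x utrn-/- array is the highest of the 9.

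In the comparison without the human gene, the hDMD x mdx mice entered only through the shared error estimate. The calls of S100a8 and S100a9 nonetheless needed each of the 4 mice with utrophin. Both ended when mdx 1 or mdx 2 was left out (adjusted p 0.218 and 0.221 in limma), when hDMD x mdx 1 or 2 was left out (0.0623 each), and when only the 6 compared arrays were fitted (0.0881). They also ended with age as a covariate (0.282, at differences of 5.04 ± 0.58 for S100a8 and 5.30 ± 0.62 for S100a9) and on the intensities as deposited (0.982 in limma, at 3.23 ± 1.90 and 3.90 ± 1.90). With a pseudocount of 1 the differences were 7.32 ± 0.77 and 7.77 ± 0.998, with adjusted p values of 0.47 and 0.529 in limma. S100a9 passed the filter on dim probe sets only through the mdx x utrn-/- array: its mean over the other 8 arrays was 4.41, below the lowest mean kept, 4.46. With no filter it was not called (adjusted p 0.063 in limma), while S100a8, at 4.50 over those 8 arrays, was (0.0363). The other 12 neutrophil and mast cell genes kept lay above 4.46 without that array.

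Other neutrophil genes were also higher in mdx x utrn-/- than in the mdx mice, without passing the test. Of 13 neutrophil and mast cell genes kept of 17 listed, 10 were higher in mdx x utrn-/- than in both mdx mice (31.4% of all probe sets were, while 48.4% were above the control mean without the human gene, 48.2% with it and 48.4% in the additive fit). Their median difference was 2.70 without the human gene, against -0.02 over all probe sets, and 0.21 with it, against -0.03. The 10 were the neutrophil genes of the list, among them S100a9, which was kept only through that array. The 3 lower ones were the mast cell genes Tpsb2, Cpa3 and Cma1, at 4.0, 4.0 and 4.90 in mdx x utrn-/-.

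Primary granule enzymes, which neutrophil precursors make early in the marrow, were among them. Mpo, myeloperoxidase, was at 4.55 and 4.04 in mdx and 7.17 in mdx x utrn-/-, and Elane, neutrophil elastase, at 4.40 and 4.27 against 6.76. Prtn3, proteinase 3, was at 4.61, 4.0 and 5.18, a smaller step. Secondary granule genes, which are made later, were higher in that mouse too. Camp, the antimicrobial peptide cathelicidin, was at 6.23 and 5.99 against 8.88, and Ltf, the iron-binding protein lactoferrin, at 4.68 and 4.68 against 7.38 (difference 2.70 ± 0.41, adjusted p 0.341 in limma). Lcn2, the siderophore-binding lipocalin, was at 5.00 and 4.99 against 7.07, and Chil3, a chitinase-like protein of myeloid cells, at 5.29 and 4.57 against 7.62. With the human gene these genes overlapped or nearly met between mice with and without utrophin: Mpo was at 4.0 and 5.31 against 4.38, Camp at 5.21 and 6.49 against 6.37, and Ltf at 4.80 and 5.20 against 4.75.

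On both backgrounds at once, 4 of the 13 members lay above both controls (12% of all probe sets did): Ngp, Lcn2, Chil3 and S100a9. Of these, S100a9 was kept by the filter only through the mdx x utrn-/- array. Lcn2 and Chil3 reached only 4.51 and 4.52 in hDMD x mdx x utrn-/-, near the floor. Ngp, neutrophilic granule protein, was at 6.40 and 5.29 in mdx and 8.80 in mdx x utrn-/-, and at 5.35 and 4.86 in hDMD x mdx and 6.54 in hDMD x mdx x utrn-/-. That last value was close to mdx 1 and to 1 wild-type mouse, at 6.23. The additive difference was 2.20 ± 0.47 and did not pass (adjusted p 0.74 in limma).

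Other transcripts high in the same mouse included Mmp9, gelatinase B, which neutrophils carry in their granules, at the floor in both mdx mice and at 6.11 in mdx x utrn-/-. Like S100a9, Mmp9 was kept by the filter only through that array. Its mean over all 9 arrays was 4.52, and the lowest mean kept was 4.46. G0s2, an inhibitor of adipose triglyceride lipase that was first described in blood mononuclear cells, was at 5.14 and 5.50 against 9.55, a difference of 4.23 ± 0.50 (adjusted p 0.161 in limma, and 0.0439 with a pseudocount of 64). On the other background G0s2 was at 5.26 and 6.07 against 6.05. The summed intensity of the 5 neutrophil markers S100a8, S100a9, Ltf, Ngp and Camp was 2278 in mdx x utrn-/- and 61.1 to 218.2 in the other 8 arrays. The red cell markers Hba-a1 and Alas2 summed to 1658 in that mouse, inside the 807.9 to 2101 of the others, and the 6 macrophage markers to 305.1, inside 82.97 to 575.1. In whole muscle, more cells of a type and more RNA per cell cannot be told apart, and the part of blood in the tissue was not tested beyond these sums.

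Macrophage transcripts were more often lower than higher in the same mouse. Of 24 macrophage and monocyte genes, 19 were lower in mdx x utrn-/- than the mdx mean, with a median of -0.53, while with the human gene 12 were higher and 12 lower, with a median of -0.08. None was called. Ctss, cathepsin S, a lysosomal protease of antigen-presenting cells, was at 7.99 and 8.50 in mdx and 6.95 in mdx x utrn-/-, and at 6.14 and 5.26 in hDMD x mdx and 4.18 in hDMD x mdx x utrn-/-. It was thus lower without utrophin on both backgrounds, by 1.41 in the additive fit (-1.41 ± 0.36, adjusted p 0.74 in limma). Mmp12, macrophage elastase, was at 6.54 and 6.34 in mdx and 4.70 in mdx x utrn-/-, and near or at the floor in all hDMD x mdx mice. Lyz2, lysozyme, was at 7.87, 7.31 and 7.16 without the human gene, and at 5.85 and 5.51 with utrophin and 4.0 without it in its presence. Cd68 and Lgals3, further macrophage markers, had no common direction. Cd68 lay just below both mdx mice and just above both hDMD x mdx mice, at 7.27 and 6.21 against 6.17, and at 4.79 and 4.94 against 5.08. Lgals3, galectin-3, was at 8.54 and 7.28 against 7.71, and at 4.68 and 5.13 against 4.23.

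Of 5 other immune lists, 4 had medians below that of all probe sets in mdx x utrn-/-, and the T and B lymphocyte list did not (6 of 10 genes higher, median 0.09). Of 14 antigen presentation genes 10 were lower than the mdx mean (median -0.39), as were 9 of 11 complement genes (-0.41), 7 of 9 chemokine and receptor genes (-0.64) and 10 of 14 interferon response genes (-0.38). In the same order the medians with the human gene were -0.11, 0.05, -0.30 and -0.04. Ccl8, a monocyte-attracting chemokine, was at 6.58 and 7.16 in mdx and 4.83 in mdx x utrn-/-, and at 5.35, 4.75 and 5.03 with the human gene. The class II chain gene H2-Ab1 was at 7.06 and 6.43 against 5.15, but ranged from 4.0 to 8.20 between the 2 wild-type mice.

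The additive fit asked which genes differed with utrophin on both backgrounds at once. No probe set was called (0% of 7453, with 440 at an unadjusted p under 0.05, or 5.9%, of which 168, or 2.25%, were higher and 272, or 3.65%, lower without utrophin), and the smallest adjusted p was 0.74 in limma. The values that follow are therefore descriptions. Higher than both controls on both backgrounds were 897 probe sets (12%), and lower on both were 1125 (15.1%).

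Ankrd2, a stretch-responsive ankyrin repeat protein of the sarcomere's I-band, was the brightest of the 8 genes with the smallest p among the higher ones. It was at 8.36 and 8.13 in mdx and 9.57 in mdx x utrn-/-, and at 7.75 and 7.72 in hDMD x mdx and 8.73 in hDMD x mdx x utrn-/-. Both mice without utrophin thus lay about the same distance above their controls, for an additive difference of 1.16 ± 0.28. Against the wild-type mice, at 7.30 and 8.42, the hDMD x mdx x utrn-/- value was only slightly higher. Shd, an SH2 adaptor protein, was at 4.62 and 4.37 against 5.83, and at 4.53 and 4.53 against 5.83, so it too was highest of the 9 arrays in the 2 mice without utrophin. Maged2, a MAGE family protein, differed by 1.68 ± 0.40 and was at 6.41 and 5.79 against 8.45 and at 4.81 and 5.29 against 6.07. The others were dim: the transcription factor genes Foxb2 and Pitx3, Chmp6, a subunit of the membrane-remodelling ESCRT machinery, and Enpep, aminopeptidase A, reached 5.30 to 6.29 in the mice without utrophin. The second Enpep probe set differed by -0.42. On the intensities as deposited, with no scaling between arrays, the differences of Ankrd2, Shd, Chmp6 and Pitx3 were of opposite sign.

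Of the genes with the smallest p among the lower ones, Bpgm, bisphosphoglycerate mutase, which makes the regulator of haemoglobin's oxygen affinity, was at 6.42 and 6.57 in mdx and 4.81 in mdx x utrn-/-. With the human gene it was at 7.13 and 7.19 against 5.96, and the additive difference was -1.44 ± 0.29. Fstl1, a secreted glycoprotein related to follistatin, was at 7.05 and 7.13 against 5.87, and at 6.27 and 5.81 against 4.67. For both genes the mice without utrophin lay below every control of their background. Dpp7, a lysosomal dipeptidase, differed by -1.48 ± 0.32, and Mtfr1l, a mitochondrial fission regulator family member, was at 5.73 and 6.40 against 4.49, and at 6.59 and 6.23 against the floor. Mcrs1, a nuclear protein of chromatin and spindle complexes, was at the floor in both mice without utrophin and at 5.60 to 6.10 in the 4 mice with it, while wild-type 2 and hDMD, at 4.10 and 4.59, were also low. Anxa7, an annexin, and Nacc2, a transcriptional repressor, were at or near the floor in both mice without utrophin, at 4.0 to 4.06. Agap1, a regulator of Arf GTPases, differed by -1.72 ± 0.37, but its second probe set by 0.08.

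**Figure D2:**
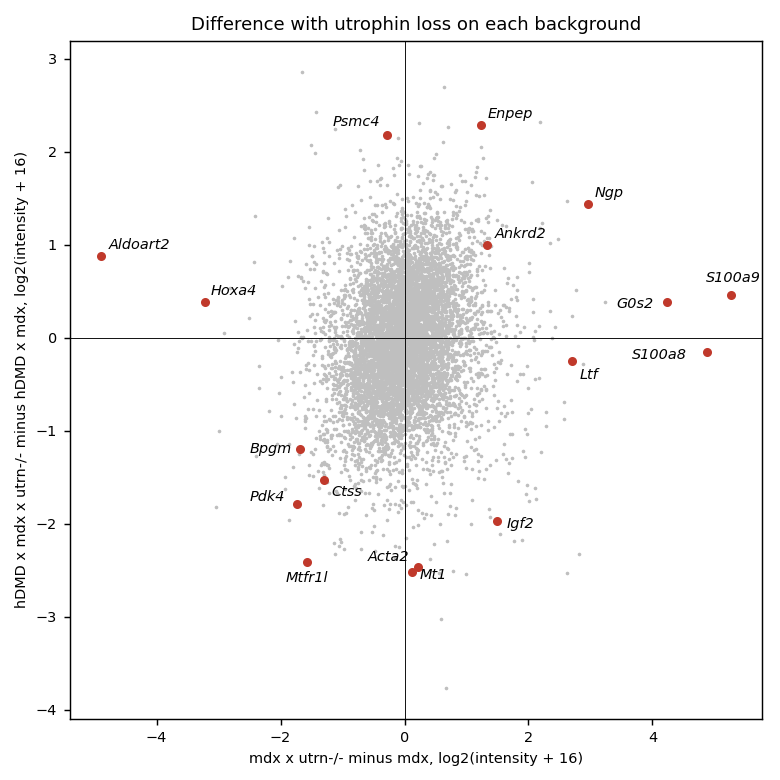
Each point is 1 of 7453 probe sets, with the difference mdx x utrn-/- minus mdx on the x axis and hDMD x mdx x utrn-/- minus hDMD x mdx on the y axis, both in log2(intensity + 16) and both 1 array against 2. S100a8, S100a9 and G0s2 lie far to the right close to the horizontal line, and Ankrd2, Ngp, Bpgm, Ctss and Pdk4 lie on the same side of 0 on both axes.

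Fuel genes were lower without utrophin on both backgrounds more often than higher. Of 24 fatty acid oxidation genes 16 were lower in the additive fit, with a median of -0.34 against -0.02 over all probe sets, and none was called. The median was -0.26 without and -0.33 with the human gene, but -0.07 in the 4 dim arrays alone and -0.01 with age as a covariate. Pdk4, the kinase that shuts off pyruvate dehydrogenase and spares glucose, was at 6.79 and 8.66 in mdx and 5.99 in mdx x utrn-/-. With the human gene it was at 9.22 and 8.63 against 7.13. Both mice without utrophin lay below their controls, by 1.76 in the additive fit (-1.76 ± 0.51, adjusted p 0.74 in limma). Cpt1a, the liver form of the enzyme that brings long-chain fatty acids into mitochondria, was at 5.87 and 6.34 against 5.15, and at 5.82 and 5.32 against 4.17. Decr1, an auxiliary enzyme of unsaturated fatty acid oxidation, differed by -0.96 and was at 5.70 and 6.42 against 5.66, and at 6.41 and 5.93 against 4.65. Of 36 oxidative phosphorylation genes 26 were lower, with a median of -0.10. Cox6c and Ndufa5, subunits of complexes IV and I, differed by -1.38 and -1.20, but both were also higher in the bright than in the dim array of each control pair, Cox6c at 10.27 against 9.12 in mdx and 9.79 against 8.80 in hDMD x mdx.

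**Figure D3:**
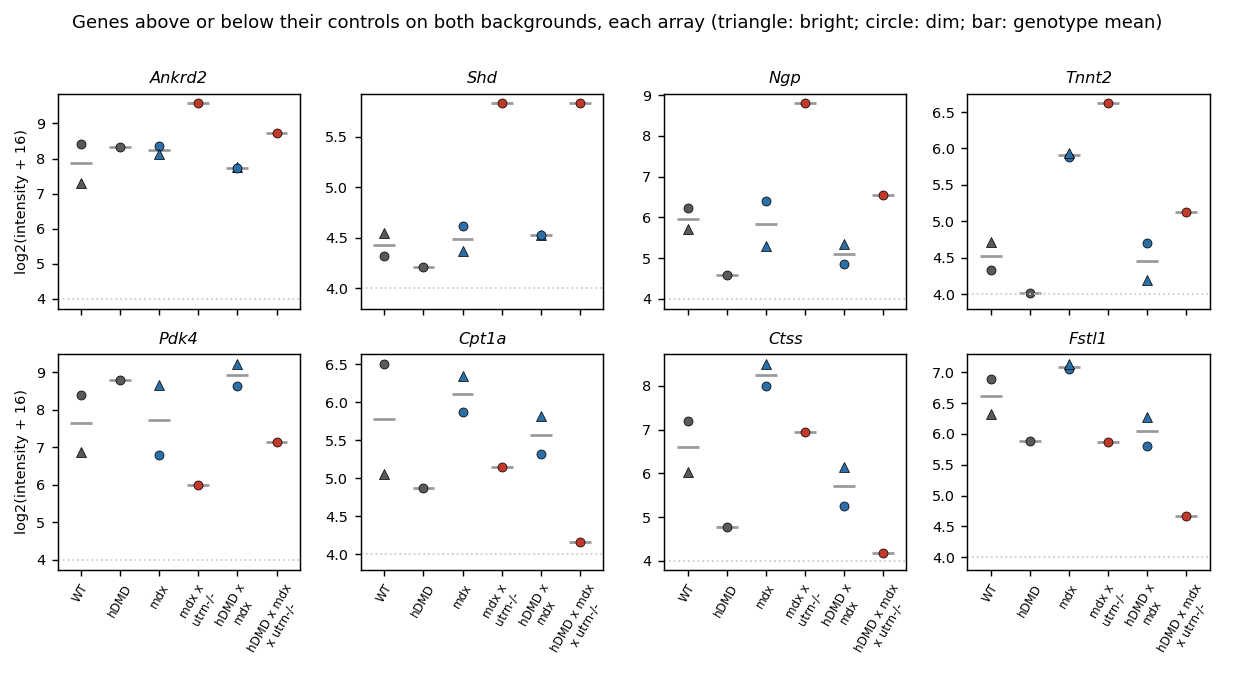
Levels of 8 genes on each of the 9 arrays, in log2(intensity + 16), by genotype, with symbols and colours as for the neutrophil genes. In the upper row (Ankrd2, Shd, Ngp, Tnnt2) the 2 mice without utrophin lie above the controls of their background, and in the lower row (Pdk4, Cpt1a, Ctss, Fstl1) below them.

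The targeted gene could not be used to check the labels. The brighter Utrn probe set was at 5.93 and 4.15 in mdx and 5.64 in mdx x utrn-/-, and at 4.33 and 6.16 in hDMD x mdx and 5.28 in hDMD x mdx x utrn-/-, so both mice without utrophin lay inside the range of their controls. The other Utrn probe set stayed between 4.15 and 4.74 on all 9 arrays. No source used here says where the probes lie relative to the allele. The mouse Dmd probe set was also dim, at 4.0 to 4.95.

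Genes of the complex that dystrophin and utrophin both bind had no common direction. Of 14 genes kept of 21 listed, 7 were higher and 7 lower in the additive fit, with a median of 0.13. None had an unadjusted p under 0.05 in limma, which for so few genes is near the 5.9% of all probe sets that had. Sgca, alpha-sarcoglycan, was at 8.83 and 7.97 in mdx and 8.87 in mdx x utrn-/-, and at 8.16 and 8.73 against 9.21 with the human gene, a difference of 0.62 ± 0.36. Dtna, alpha-dystrobrevin, which binds both proteins in the cytoplasm, differed by 0.62 ± 0.42, and Sspn, sarcospan, by -0.53 ± 0.29. Dag1, dystroglycan, the matrix receptor of the complex, was at 8.07 and 7.64 against 8.27, and at 7.98 and 7.76 against 8.03, a difference of 0.29 ± 0.29. The list median changed sign when mdx 2 or hDMD x mdx 1 was left out (-0.04 and -0.03) and with age as a covariate (-0.17).

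At the neuromuscular junction, where utrophin is concentrated, Ache, acetylcholinesterase, stood apart. It was at 6.44 and 5.93 in mdx, at 5.02 and 4.57 in hDMD x mdx, and at the floor in both mice without utrophin, and did not pass (adjusted p 0.74 in limma). Wild-type 2 was at the floor for Ache too, and wild-type 1 at 5.61. The other junction genes did not share this pattern: of 14 kept, 7 were higher and 7 lower, with a median of -0.03. Rapsn, the protein that clusters acetylcholine receptors, was at 6.89 and 6.83 against 7.14, and at 6.68 and 6.80 against 7.16, the only member above both controls on both backgrounds (1 of 14, against 12% of all probe sets), as Ache was the only one below (15.1% of all probe sets). The receptor subunit genes Chrna1, Chrnd and Chrng differed by -0.55, 0.56 and -0.48.

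Of 22 embryonic and regenerating muscle genes, 15 were higher without utrophin in the additive fit, with a median of 0.06, and none was called. The median was 0.33 without the human gene (12 of 22 higher) and 0.28 with it (14 of 22 higher), so either mouse without utrophin alone gave a higher median than both together. Myh8, the perinatal myosin heavy chain, was at 7.14 and 6.61 in mdx and 7.59 in mdx x utrn-/-, and at 5.39 and 6.15 against 6.76 with the human gene, a difference of 0.85 ± 0.34, but a dimmer second probe set differed by -0.58. Tnnt2, the cardiac troponin T of developing muscle, was at 5.89 and 5.94 against 6.62, and at 4.20 and 4.71 against 5.12. For both, the mice without utrophin lay above the controls of their own background. For Tnnt2 the hDMD x mdx and mdx backgrounds lay further apart than mice with and without utrophin. Myl4, the embryonic and atrial myosin light chain, was at 8.66 and 8.26 against 8.05, and at 5.82 and 6.21 against 6.34, so it differed far more between backgrounds than with utrophin (difference -0.04 ± 0.33). Myh3, the embryonic myosin, was at 6.81 and 5.72 against 7.16, and at 4.40 and 4.27 against 4.40, and Myog, myogenin, at 5.48 and 6.66 against 6.77, and at 5.39 and 5.40 against 5.52.

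Some stretch and growth genes lay on opposite sides of their controls on the 2 backgrounds. Csrp3, muscle LIM protein, was at 6.32 and 7.48 in mdx and 8.91 in mdx x utrn-/-, but at 6.45 and 5.05 in hDMD x mdx and 4.0 in hDMD x mdx x utrn-/-. Igf2, the fetal growth factor, had its highest level of all arrays in mdx x utrn-/- (9.75 and 8.72 against 10.73) and its lowest in hDMD x mdx x utrn-/- (6.17 and 5.76 against 4.0). Ankrd1, a stretch-induced relative of Ankrd2, was at 5.69 and 6.13 against 7.36 without the human gene, and at 4.31 and 4.27 against 4.0 with it. Dlk1, an imprinted inhibitor of adipocyte differentiation, did not share this and lay above its controls on both backgrounds. It was at 4.92 and 4.87 against 6.24, and at 4.90 and 5.32 against 5.39.

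The medians of the lipid synthesis and adipocyte list also diverged by background. Of 18 genes, 14 were higher in mdx x utrn-/- than the mdx mean (median 0.76), and 14 were lower in hDMD x mdx x utrn-/- than the hDMD x mdx mean (median -1.08), with no member called in either. Against the dim control of each background alone, the list medians were 1.31 and -0.48. Fasn, fatty acid synthase, was at 7.81 and 7.85 in mdx and 9.77 in mdx x utrn-/-, and at 9.12 and 7.50 against 7.03 with the human gene. Acly, which makes cytosolic acetyl-CoA for it, was at 7.42 and 6.95 against 9.30, and at 8.16 and 6.71 against 5.82. Retn, the adipocyte hormone resistin, was at 6.30 and 6.44 against 9.00, and at 6.71 and 7.01 against 4.33. Scd1 and Pck1, which had the largest additive differences of the list, did not diverge and lay below all controls on both backgrounds. Scd1 was at 9.37 and 9.81 against 8.62, and at 10.59 and 9.68 against 8.84. Pck1 differed by -1.50 ± 0.63 in the additive fit. The defining fat cell marker Adipoq, adiponectin, did not separate the mdx group, at 7.07 and 8.64 against 8.57. The fat cell markers Adipoq, Fabp4 and Retn summed to 1131 in mdx x utrn-/- and 189.3 in hDMD x mdx x utrn-/-. The sum ranged from 229.5 to 1982 between the 2 wild-type mice, and its part in the lipid genes was not tested.

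Of 30 immediate early and stress genes, 19 were higher in mdx x utrn-/- (median 0.29) and 24 were lower in hDMD x mdx x utrn-/- (median -0.49). Against the dim control of each background alone, these medians were 0.39 and -0.20. Fos, a subunit of the AP-1 transcription factor, was at 5.17 and 5.38 against 7.02, and at 5.29 and 5.68 against 4.69. Junb, its partner, was at 4.83 and 5.09 against 6.24, and at 4.68 and 4.0 against 4.0. Mt1, a metal-binding metallothionein, was at 8.64 and 9.16 against 9.02 without the human gene, and at 6.39 and 6.64 against the floor with it. Its relative Mt2 did not share this, at 7.41 and 8.40 against 7.90 with the human gene.

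Other genes named for the hDMD x mdx background were lower in hDMD x mdx x utrn-/-. Acta2, smooth muscle actin of vessel walls, was at 7.72 and 7.41 against 5.11, while mdx and mdx x utrn-/- were at 7.44, 7.77 and 7.83. Hcn2, a pacemaker channel, was at 7.26 and 8.43 against 4.82, and Ppdpf, a factor of pancreatic differentiation, at 6.32 and 6.43 against the floor. In the opposite direction Psmc4, an ATPase subunit of the proteasome, was at 4.55 and 5.01 against 6.96, Sh2b3, an adaptor that restrains cytokine signalling, at 5.20 and 4.67 against 7.00, and Commd9, a protein of endosomal sorting, at 5.67 and 5.45 against 7.30 (its second probe set differed by -0.10). These 6 levels lay outside the range of the other 8 arrays, and none passed (adjusted p 0.873 in limma). The differences of Psmc4, Sh2b3 and Commd9 were of opposite sign on the intensities as deposited.

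On the mdx background the lower genes with the smallest p included 2 at the floor. Hoxa4, a positional transcription factor, was at 7.07 and 7.37 in mdx and 4.0 in mdx x utrn-/-, and at 5.98 to 7.22 in the other 6 arrays, while a dim second probe set differed by 0.38. Aldoart2, an aldolase A retrogene, was at 9.36 and 8.43 against the floor, and at 8.26 or more elsewhere. It did not pass in the main test (adjusted p 0.337 in limma) but did with brightness as a block (0.00918), and signal from the closely related aldolase A gene cannot be told apart with certainty. The Aldoa probe sets were at 11.65 and 10.96 in the same mouse, as in hDMD x mdx x utrn-/-. Mlf1, a shuttling nuclear protein, was at 7.37 and 7.64 against 4.59. Hpn, the membrane protease hepsin, was among the genes with the smallest p for the difference between backgrounds, at 5.70 and 5.37 against 4.06, and at 5.41 and 5.28 against 6.33.

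Slow fibre genes had the second highest list median in the additive fit, 0.54 over 11 genes, 10 of them higher, and it moved with single arrays. Myh7, the slow myosin heavy chain, was at 5.34 in mdx 1, 9.28 in mdx 2 and 8.84 in mdx x utrn-/-, and at 9.01 and 7.84 against 8.27 with the human gene. Myl2, the slow regulatory light chain, was at 5.60 and 9.15 against 8.49, and at 9.28 and 8.27 against 8.67. For these genes both mice without utrophin lay inside the range of their controls, and the list median was 0.14 without mdx 1, 0.10 without mdx x utrn-/- and 1.07 in the 4 dim arrays. Above all their controls on both backgrounds were 3 of the 11 members (12% of all probe sets were): Actn2, Tpm3 and Myl3. Actn2, the alpha-actinin of the Z-disc, was at 9.07 and 9.49 against 10.02, and at 8.83 and 7.96 against 9.14, a difference of 0.75 ± 0.35. The fast fibre genes had a median of 0.05, with Myh4, the fastest myosin, at 11.30 to 11.65 on all 9 arrays.

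**Figure D4:**
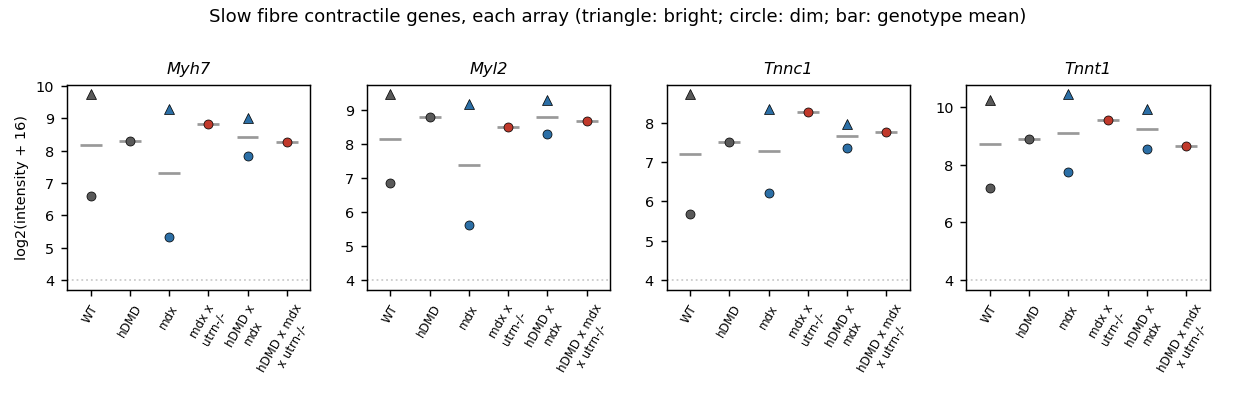
Levels of 4 slow fibre genes on each of the 9 arrays, in log2(intensity + 16), with symbols and colours as for the neutrophil genes. In all 4 panels each mouse without utrophin lies between the 2 controls of its background, and the bright array of each control pair is the higher one.

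Among the remaining lists, 16 of 23 cell cycle genes were higher without utrophin (median 0.38, or 0.13 in the 4 dim arrays). Mki67, a marker of dividing cells, was at 4.69 and 4.75 in mdx and 5.71 in mdx x utrn-/-, and at 4.35 and 4.32 against 4.55. Collagen genes were lower in mdx x utrn-/- in 16 of 22 cases (median -0.35) and had a median of 0.13 with the human gene. Col1a1 and Col3a1, the main fibrillar collagens, differed by 0.20 ± 0.34 and 0.24 ± 0.52, while their dimmer probe sets differed by -0.10 for Col1a1 and by -0.51 and -0.36 for Col3a1. Timp1, a protease inhibitor, was at 8.66 and 7.53 against 7.43, and at 5.30 and 6.10 against 6.99. Itgav, the alpha-V integrin, was at 7.55 and 8.22 against 6.94, and at 7.72 and 6.46 against 5.21, a difference of -1.41 ± 0.45. Mstn, the growth inhibitor myostatin, was at 6.67 and 6.19 against 6.13, and at 7.73 and 8.28 against 7.73, so it too differed more between backgrounds than with utrophin.

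**Figure D5:**
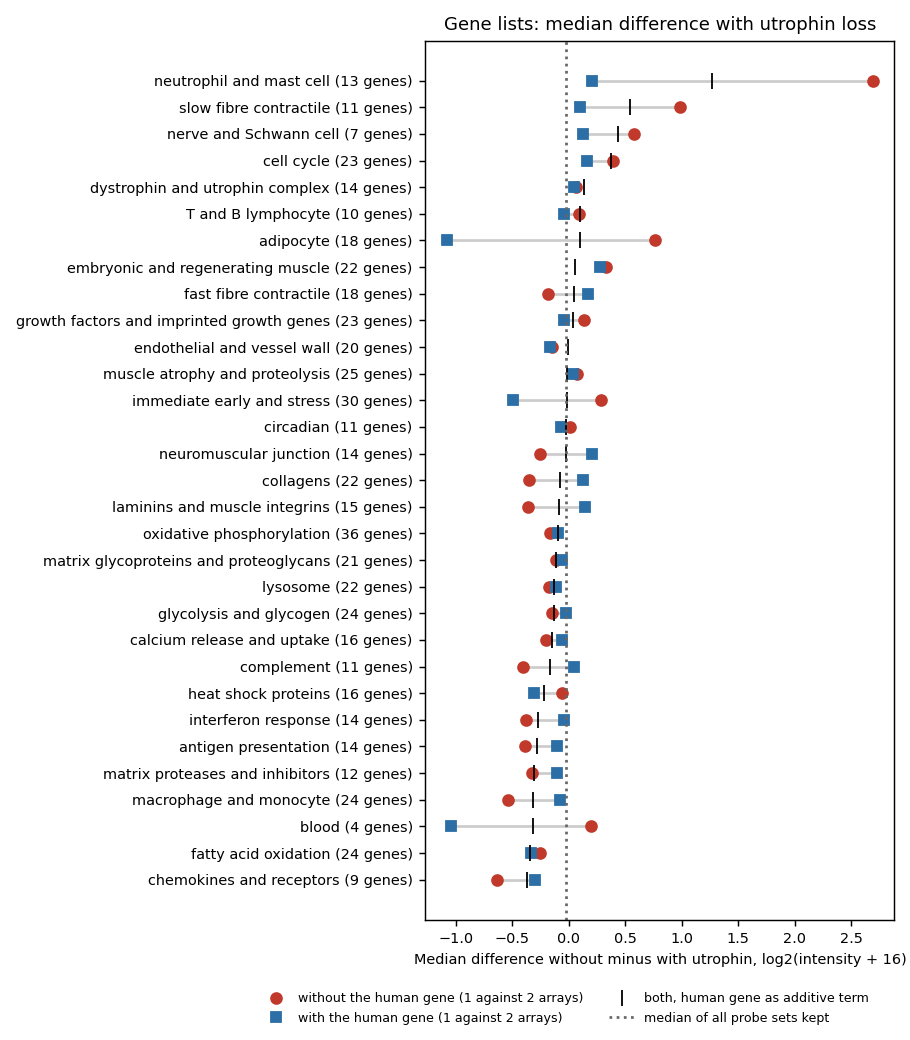
Median difference without minus with utrophin in log2(intensity + 16) for 31 gene lists, each on its own row with the number of genes kept. Red circles are without the human gene, blue squares with it, black ticks the additive fit, and the dotted line the median of all probe sets, -0.02. The neutrophil and mast cell list lies furthest right, and the blue square of the adipocyte list lies furthest left.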

How the data were processed

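Gastrocnemius RNA of 9 mice was measured on 1 array each. Per the labels' protocols, RNA was extracted with Trizol and RNeasy and copied into biotin-labelled cRNA. The authors deposited 1 linear intensity per probe set and array, partly below 0, and no source used here states how these intensities were computed or scaled. The array medians of the deposited intensities were 1.47 to 45.6, so the intensities of 12422 non-control probe sets were quantile normalised over the 9 arrays. Values below 0 were set to 0, 16 was added and log2 taken. Probe sets above the 40th percentile of the mean level were kept (7453, of which 6698 had 1 gene symbol, for 5666 genes). Depth in the sense of reads does not apply, and the number of arrays limits the precision.

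The additive comparison was fitted with limma 3.58.1 in R 4.3.3 on the 6 mdx arrays, with utrophin genotype and the human gene as terms. The comparisons per background, and their difference, came from 1 mean per genotype over all 9 arrays. Each fit left 3 residual degrees of freedom. In the additive fit these include the difference of the utrophin effect between backgrounds, beside the spread within genotypes with 2 mice. Tests were two-sided, with Benjamini-Hochberg adjustment over all 7453 probe sets kept. Each array is an individual mouse, and the p-values rest on a spread estimated mainly from genotypes with 2. Each such genotype held 1 bright and 1 dim array. The spread between mice and the difference in brightness therefore cannot be told apart in these p-values.

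Symbols came from GEO's platform annotation, updated to RefSeq where possible: of the 12422 probe sets, 10833 had 1 symbol, 396 several and 1193 none. A gene with several probe sets is given by the one with the highest mean. The comparison, its 31 gene lists and the named genes were chosen with earlier results of these data known. Set to be named were the calls by size. They were filled up by smallest p to 8 genes a direction for the additive fit and to 4 for each other comparison. The 3 members of each list with the largest additive difference and 27 fixed genes were added. Not all list members set by this rule are described. H19, Myh2 and Spp1 of the fixed genes had no probe set kept. List members beyond these were chosen after their values were seen, as were the promoters of S100a8, S100a9, G0s2 and Ltf and the motifs. Lists were not tested. Scripts were tested on simulated data. Alternatives were other scalings, pseudocounts, filters and spread models, terms for brightness and age, fewer arrays, and each mouse left out.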

Additional observations from a re-analysis of the deposited data

How the results depend on the processing

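Without utrophin there was 1 mouse per background, the youngest of its comparison, and brightness differed between arrays. For the comparison without the human gene, 2 calls became 0 on the deposited values, with a pseudocount of 1, with age as a covariate and with only the 6 compared arrays (2, 394, 121 and 320 probe sets at an unadjusted p under 0.05 in limma), and 6 with no filter on dim probe sets, where S100a8 was among them and S100a9 was not (adjusted p 0.063 in limma). With the human gene, 0 calls became 3 with no filter, on probe sets at the floor in both controls. For the difference between backgrounds, 0 became 2 with brightness as a block (S100a8 and Aldoart2). Each of the 6 compared mice was left out in turn, while the wild-type and hDMD mice were not. The calls without the human gene ended when any mdx or hDMD x mdx mouse was left out. No other comparison gained a call. The additive comparison had 0 calls under each alternative run. Without the human gene, G0s2 was also called with a pseudocount of 64, and Aldoart2 with brightness as a block. With no filter, the calls there other than S100a8 were on probe sets at the floor in both mdx mice. On the deposited values, without any normalisation between arrays, the additive differences of Shd, Ankrd2, Chmp6 and Pitx3 were -0.101, -0.704, -0.161 and -0.246, and those of Psmc4, Commd9 and Sh2b3 with the human gene were -0.116, -0.928 and -0.622, all opposite in sign, and the cause was not tested. Of the other single-gene values under alternatives other than leaving out 1 mouse, 369 kept direction and side of the threshold, 4 gained and 9 lost a call. Some of these alternatives used fewer arrays. No paired analysis was possible because each array is a different mouse and the labels pair no mice.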
